A study of Mus musculus with 20 samples.

Results

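The genes described here are 10 that act at the interleukin-1 (IL-1) receptor: the ligands Il1a and Il1b, the receptor antagonist Il1rn, the receptor subunits and receptor-like proteins Il1r1, Il1r2, Il1rap and Sigirr, and the receptor-associated kinases Irak2, Irak3 and Irak4. They were chosen by name, with earlier results of these data known, and not by a threshold on a measured value. The counts and medians over the 10 genes are therefore a description. They are 10 of the 37681 genes listed in the tables, and all 10 were among the 15578 genes tested. Il1r2 passed the filter on low counts (5 reads in 5 of 10 libraries) through the treated mice, so its difference follows in part from how it entered the test.

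The study compared 2 sequencing platforms with liver RNA of 10 mice, all males of 12 weeks and of the strain labelled C57/BL6. Of these, 5 received IL-1β at 20 µg/kg (ILB_9577, ILB_9578, ILB_9579, ILB_9582 and ILB_9583) and 5 received saline and are called untreated (UNT_9574, UNT_9575, UNT_9576, UNT_9580 and UNT_9584), and the livers were taken 4 hours later. The mice carried no labelled transgene or mutation, and whole liver was used, so each value averages over all cell types of the organ. Each RNA gave 1 Illumina and 1 Ion Torrent library, and the reads of each were aligned in 3 ways, which gave 6 tables of 10 libraries. Values below are from the Illumina libraries aligned with STAR unless another table is named, in which the total count per library was 10568530 to 11046256. CPM values are counts scaled to the library total after TMM normalization, and log2 fold changes (IL-1β over untreated) with their standard errors (SE) and adjusted p-values are those of edgeR's quasi-likelihood test, with Benjamini-Hochberg adjustment over all 15578 genes and a threshold of 0.05. Hepatocyte markers were high in every library, at a summed 74374 to 84540 CPM in the treated and 90453 to 111371 CPM in the untreated mice. The libraries of UNT_9584 matched each other less than those of the other mice. The deviations of its Illumina and Ion Torrent libraries from the untreated means correlated at only 0.194 to 0.246 over the 3 aligners, against 0.626 to 0.778 for the other 9 mice. The study reports shifted Ion Torrent read lengths for this sample. Which of its libraries departed from the others was not tested.

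IL-1α and IL-1β bind the same receptor, IL-1R1, which then recruits the accessory protein IL-1RAP. The assembled receptor gathers MyD88 and the IRAK kinases, and this leads to NF-κB and to the acute phase response that the liver is known for. The pathway is restrained at several steps: IL-1Ra occupies the receptor without signaling, IL-1R2 is a decoy that binds ligand but has no signaling domain, SIGIRR interferes with receptor assembly, and IRAK-M, the product of Irak3, is a kinase-like protein that limits signaling from the IRAK complex.

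After IL-1β treatment the genes of the receptor, the antagonist, the decoy receptor and the inhibitory IRAK were far higher. The accessory protein gene, Sigirr and Irak2 were modestly lower, and the ligand genes did not pass the test. Of the 10 genes, 5 were called higher (Il1rn, Il1r1, Il1r2, Irak3 and Irak4), 3 were called lower (Il1rap, Sigirr and Irak2) and 2 were not called (Il1a and Il1b). The background for these counts was 45.7% of all tested genes called, with 22.7% called higher and 22.9% called lower. The rank-sum test called 38.1% of all genes and the same numbers of the 10 in each direction. Without UNT_9584, Il1b was called as well, so that 6 were higher and 3 lower. The treated and untreated mice did not overlap in CPM for 7 of the 10 genes, against 33.9% of all tested genes. The median log2 fold change of the 10 genes was 0.79, and that of all tested genes was 0. With Il1r2 set at its lower bound it was also 0.79, but Il1r2 stayed the largest of the 10 there, so this median could not change.

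**Figure D1:**
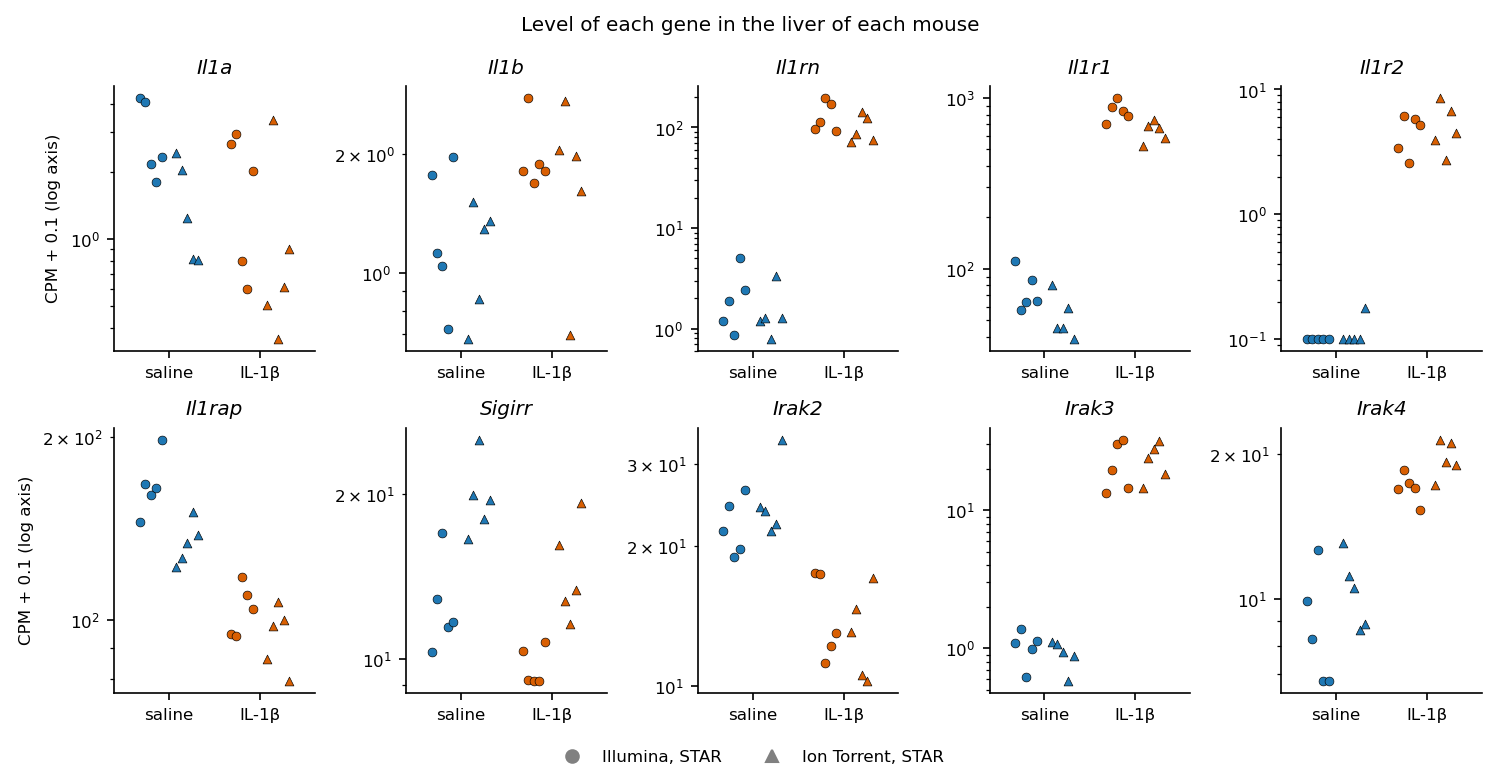
CPM of each gene in each mouse (log axis, with 0.1 added so that 0 can be drawn), untreated in blue and IL-1β in orange, with circles for Illumina and triangles for Ion Torrent, both aligned with STAR. Il1rn, Il1r1, Il1r2, Irak3 and Irak4 lie higher in all 5 treated mice on both platforms, and Il1rap and Irak2 lie lower in all 5.

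The sequences before the start sites show what the promoters of the strongest responders and of the ligands hold. They are RefSeq sequences of the build GRCm38.p6, and 9 of the 10 genes matched, with 13 start sites among them. On both strands of the 250 bases upstream of each start site, TATAAA stood for the TATA box. For the factor AP-1 the letters searched were TGANTCA. For C/EBP the search used TTNNGNAA. For STAT factors it used TTCNNNGAA, and the NF-κB consensus was searched as well. Capitals in the sequences mark matches, and positions count upstream from the start site. Farther upstream than the 60 bases shown for the ligand genes, Il1b also held a C/EBP match, at 91 to 84. The 60 bases next to the start sites of the ligand genes both hold a TATA box, at 32 to 27 in Il1a and 31 to 26 in Il1b, and Il1a has an AP-1 match at 12 to 6 and a C/EBP match at 43 to 36 besides:
Il1a (chr2:129309973-129310032, minus strand): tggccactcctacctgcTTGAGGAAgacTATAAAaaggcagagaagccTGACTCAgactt
Il1b (chr2:129371140-129371199, minus strand): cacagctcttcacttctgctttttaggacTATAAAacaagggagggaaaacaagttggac

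The windows of 250 bases for the 4 genes with the largest increases follow, with 1 start site each. For Il1rn and Il1r1, the site shown was chosen after the search for its AP-1 or NF-κB match, while Il1rn sites 2 and 3 and Il1r1 site 1 held C/EBP matches only and Irak3 site 2 held none:
Il1rn, start site 1 (chr2:24336610-24336859, plus strand): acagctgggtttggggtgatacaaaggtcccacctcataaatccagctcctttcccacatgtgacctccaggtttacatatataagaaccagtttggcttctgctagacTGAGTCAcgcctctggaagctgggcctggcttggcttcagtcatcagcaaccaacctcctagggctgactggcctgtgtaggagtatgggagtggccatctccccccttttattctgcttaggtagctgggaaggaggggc
Il1r1, start site 2 (chr1:40266336-40266585, plus strand): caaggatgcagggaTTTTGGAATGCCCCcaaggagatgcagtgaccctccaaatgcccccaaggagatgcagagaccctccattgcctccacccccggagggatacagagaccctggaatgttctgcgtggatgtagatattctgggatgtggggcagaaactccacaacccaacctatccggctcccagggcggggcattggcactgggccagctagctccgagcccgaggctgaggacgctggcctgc
Il1r2 (chr1:40085843-40086092, plus strand): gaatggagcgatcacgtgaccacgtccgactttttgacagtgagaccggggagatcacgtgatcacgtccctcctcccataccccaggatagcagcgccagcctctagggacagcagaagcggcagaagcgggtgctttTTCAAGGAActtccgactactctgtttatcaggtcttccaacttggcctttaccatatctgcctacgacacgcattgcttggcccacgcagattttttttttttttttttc
Irak3, start site 1 (chr10:120201598-120201847, minus strand): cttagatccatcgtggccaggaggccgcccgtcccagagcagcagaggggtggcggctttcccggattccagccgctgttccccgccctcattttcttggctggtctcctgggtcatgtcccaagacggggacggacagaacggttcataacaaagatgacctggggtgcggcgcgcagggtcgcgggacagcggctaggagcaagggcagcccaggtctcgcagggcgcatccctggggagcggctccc

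Il1rn held an AP-1 match at 141 to 135. Il1r1 held the only match to the NF-κB consensus in the 13 windows, on the opposite strand at 232 to 223, and it overlaps a C/EBP match at 236 to 229, so the capitals there are a single run. Il1r2 held a STAT match at 111 to 103, and the window of Irak3 held none of the 5 motifs. Among all 32851 RefSeq windows of this length, 7.25% held the NF-κB consensus, 6.75% AP-1, 36.8% C/EBP, 7.02% STAT and 12.4% TATAAA. These matches are letters in a window, and no binding was measured.

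The ligand genes had low counts in both groups. Il1a (ENSMUSG00000027399, NCBIM37 chromosome 2, 129125346 to 129135708), which encodes IL-1α, had counts of 27, 29, 7, 5 and 19 in ILB_9577, ILB_9578, ILB_9579, ILB_9582 and ILB_9583, and of 50, 47, 24, 19 and 24 in UNT_9574, UNT_9575, UNT_9576, UNT_9580 and UNT_9584. ILB_9579 and ILB_9582 were the lowest, and the other treated mice lay within the untreated range. The means were 1.70 ± 1.07 CPM in treated and 2.83 ± 1.16 CPM in untreated mice (SD, n = 5 each). The log2 fold change of Il1a was -0.73 (SE 0.40, 95% confidence interval -1.58 to 0.13, edgeR adjusted p = 0.159), and it ranged from -0.76 to -0.0052 over the 6 tables, with no call in any. A lincRNA on the opposite strand, Gm14023, overlaps 222 exon bases of Il1a and had a mean count of 4.1. Its log2 fold change was -1.59 (SE 0.56, edgeR adjusted p = 0.0302), and the part of its reads in the values of Il1a was not tested.

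Il1b (ENSMUSG00000027398, chromosome 2, 129190306 to 129196875) encodes the cytokine that was injected, so its reads are those of the mouse's own transcript. It had counts of 18, 27, 16, 18 and 17 in the treated mice and of 20, 12, 11, 7 and 20 in the untreated mice, in the same order of mice. ILB_9578 was the highest, and the other treated mice lay within the untreated range. With 1.89 ± 0.437 CPM against 1.22 ± 0.519 CPM (SD, n = 5 each), the log2 fold change of Il1b was 0.63 (SE 0.29, 95% confidence interval 0.0071 to 1.25, edgeR adjusted p = 0.0936). The call depended on the table and on UNT_9584. It was reached in the Illumina tables aligned with GSNAP (0.82, edgeR adjusted p = 0.0176) and with STAR + Bowtie2 (0.74, edgeR adjusted p = 0.0299), and with STAR when UNT_9584 was left out (0.82, edgeR adjusted p = 0.0366).

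The antagonist gene showed the largest fitted increase after Il1r2. Il1rn (ENSMUSG00000026981, chromosome 2, 24192373 to 24207014) encodes IL-1Ra, which competes with IL-1α and IL-1β for the receptor. Its counts were 1013, 1146, 1975, 1710 and 918 in the treated mice and 13, 21, 9, 56 and 25 in the untreated mice. The lowest treated mouse stood far above the highest untreated mouse, UNT_9580. Mean CPM was 133 ± 46.7 against 2.19 ± 1.67 (SD, n = 5 each), which is 61.0-fold, and the log2 fold change was 5.93 (SE 0.37, edgeR adjusted p = 1.44e-08). Over the 6 tables the log2 fold change of Il1rn was 5.83 to 6.08, called in each.

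Per kilobase of exon, the antagonist passed the ligands. The ratio of Il1rn to the sum of Il1a and Il1b had a median of 15.4 (range 12.4 to 51.6) in the treated mice and 0.218 (range 0.113 to 1.31) in the untreated mice. The treated median was 29.99 without ILB_9577 or ILB_9578 and 29.1 without ILB_9583. The antagonist transcript was below the summed ligand transcripts in 4 of 5 untreated mice, UNT_9580 being the exception, and above them in every treated mouse. Such ratios describe levels of RNA and were not tested.

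The signaling receptor Il1r1 (ENSMUSG00000026072, chromosome 1, 40281925 to 40373043) had the highest level per kilobase of exon of the 10 genes in the treated mice. It had counts of 7446, 9023, 10068, 8433 and 7803 in the treated mice and of 1329, 670, 746, 968 and 696 in the untreated mice. The groups were wide apart, and UNT_9574 was the highest of its group. Mean CPM rose 11.0-fold, from 76.5 ± 22.0 to 843 ± 110 (SD, n = 5 each), with a log2 fold change of 3.46 (SE 0.18, edgeR adjusted p = 2.11e-09). The log2 fold change of Il1r1 was 3.44 to 3.58 over the 6 tables.

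The decoy receptor Il1r2 (ENSMUSG00000026073, chromosome 1, 40141613 to 40182064) appeared with treatment. Its counts were 35, 61, 25, 58 and 51 in the treated mice and 0 in each of the 5 untreated mice. The 230 reads of the treated mice against a floor of 3 reads over the untreated group give a level at least 86.7-fold higher, and edgeR gave an adjusted p of 1.50e-06. The floor and the intervals below cover counting error only. In the tables with 1 or 2 reads over the untreated mice, the ratio was 274 (95% interval 48.7 to 10864) in Illumina GSNAP, 140 (38.2 to 1158) in Illumina STAR + Bowtie2, 340 (60.5 to 13464) in Ion Torrent STAR and 409 (73.0 to 16212) in Ion Torrent GSNAP. With 0 untreated reads in Ion Torrent STAR + Bowtie2, it was at least 139-fold higher.

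In bulk tissue, more cells of a type and more RNA per cell cannot be told apart, and the same holds for fewer cells and less RNA. IL-1R2 is known to be made by neutrophils and other myeloid cells, and the neutrophil markers rose together with Il1r2. The summed level of 11 markers was 53.0 to 117 CPM in the treated and 2.22 to 6.41 CPM in the untreated mice, and Ly6g, Camp, Ngp and Mpo were at 0 in every untreated library. The 7 markers that passed the filter were called higher, against 22.7% of all genes. Ngp passed through the treated mice alone, so this count is no support of its own. In ILB_9577, ILB_9578, ILB_9579, ILB_9582 and ILB_9583, the neutrophil sum was 71.5, 117, 53.0, 107 and 71.9 CPM. Mouse ILB_9579 was the lowest and ILB_9578 the highest for both the markers and Il1r2. The low end was not particular to this list. ILB_9579 was also the lowest treated mouse for Kupffer cell and macrophage markers (84.6 CPM) and for sinusoidal endothelium markers (89.6 CPM). The highest treated mouse for those lists was ILB_9577 (203 and 146 CPM). The part of neutrophils in the result for Il1r2, Il1rn or the other genes was not tested.

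**Figure D2:**
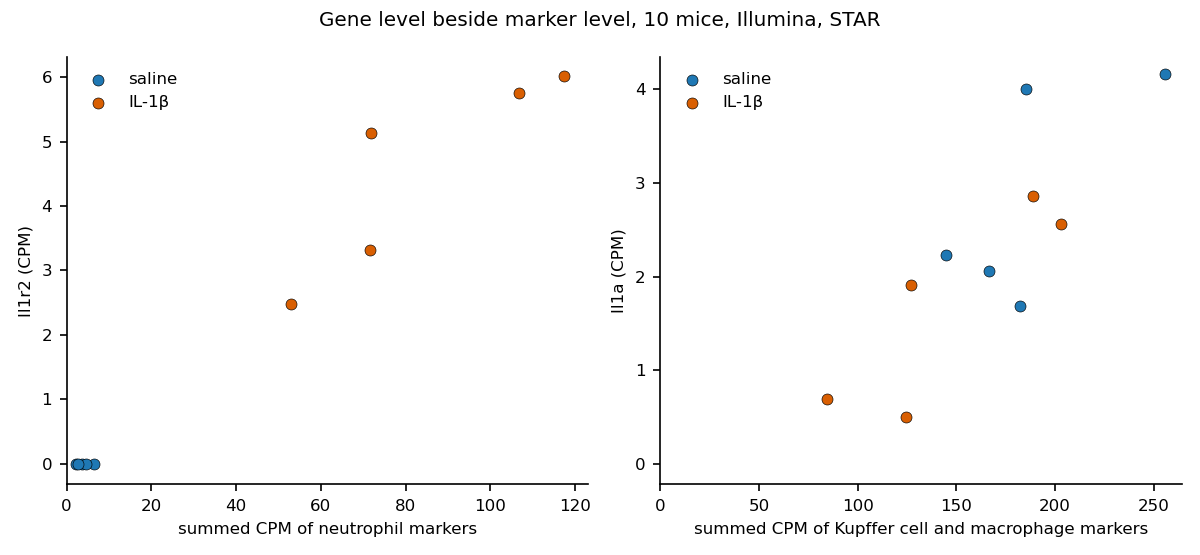
Left, Il1r2 (CPM) against the summed CPM of 11 neutrophil markers, and right, Il1a (CPM) against the summed CPM of 9 Kupffer cell and macrophage markers, 1 point per mouse (Illumina, STAR), untreated in blue and IL-1β in orange. Untreated mice sit at 0 for Il1r2 and at 2.22 to 6.41 CPM for the neutrophil markers, and the marker ranges of the groups overlap on the right.

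The other marker lists were summed in the same way, and their counts of calls stand against 45.7% of all genes called. Kupffer cell and macrophage markers summed to 84.6 to 203 CPM in treated and 145 to 256 CPM in untreated mice, with 1 of 9 called higher and 3 lower. ILB_9579, ILB_9582 and ILB_9583, the lowest of the treated mice for these markers (84.6, 124 and 127 CPM), were also the lowest of these for Il1a. The match was not particular to this list. The same mice were the lowest of the treated for sinusoidal endothelium markers (89.6, 98.3 and 116 CPM), with 146 CPM in ILB_9577 and 145 CPM in ILB_9578. The part of either cell type in the level of Il1a was not tested. Monocyte markers summed to 12.9 to 20.3 against 6.84 to 10.2 CPM (2 of 5 higher, 1 lower), lymphocyte markers to 1.21 to 2.38 against 1.69 to 3.91 CPM (0 of 5 tested higher, 1 lower) and sinusoidal endothelium markers to 89.6 to 146 against 115 to 174 CPM (2 of 6 higher, 2 lower). Stellate cell markers summed to 162 to 241 against 248 to 304 CPM (0 of 6 higher, 3 lower), cholangiocyte markers to 41.8 to 73.8 against 46.0 to 63.2 CPM (2 of 5 higher, 0 lower), and of the 7 hepatocyte markers 1 was called higher and 3 lower.

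The decoy stayed a small share of the signaling receptor at the RNA level. Per kilobase of exon, the ratio of Il1r2 to Il1r1 had a median of 0.0247 in the treated mice (range 0.00939 to 0.0260) and was 0 in each untreated mouse. The lowest ratio was that of ILB_9579, which had the most Il1r1 and the least Il1r2 reads.

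The gene of the accessory protein went the other way from that of the receptor it joins. Il1rap (ENSMUSG00000022514, chromosome 16, 26581790 to 26730203), which also serves other receptors of the family, had counts of 998, 953, 1184, 1105 and 1032 in the treated mice and of 1741, 1960, 1868, 1850 and 2124 in the untreated mice. Every treated mouse lay below every untreated mouse. The counts join the 4 coding transcripts of the gene, and which of them fell was not tested. Mean CPM fell from 167 ± 19.1 to 104 ± 10.04 (SD, n = 5 each), and the log2 fold change of Il1rap was -0.68 (SE 0.10, edgeR adjusted p = 6.91e-05), with -0.69 to -0.51 over the 6 tables. A transcript on the opposite strand, RP24-345H5.2, shares 552 exon bases with Il1rap. It had a mean count of 349.4 and a log2 fold change of -1.91 (edgeR adjusted p = 2.92e-08). Both kits keep the strand, but whether strand was used in counting is not given in the sources used here, and the part of its reads in the fall of Il1rap was not tested.

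Sigirr (ENSMUSG00000025494, chromosome 7, 148277074 to 148286445), the inhibitory receptor, was called lower by a narrow margin. Its counts were 108, 92, 91, 91 and 106 in the treated and 123, 150, 197, 128 and 125 in the untreated mice, and in CPM the groups overlapped. Mean CPM was 9.61 ± 0.789 against 12.6 ± 2.58 (SD, n = 5 each), and the log2 fold change was -0.39 (SE 0.15, edgeR adjusted p = 0.0400). This call was not stable. It was lost with edgeR when ILB_9578 (adjusted p = 0.0759), ILB_9579 (0.0787) or ILB_9582 (0.0760) or UNT_9575 (0.0686) or UNT_9576 (0.131) was left out, in the Illumina STAR + Bowtie2 table (edgeR adjusted p = 0.0513) and without a filter on low counts (edgeR adjusted p = 0.0502). Without UNT_9576, the untreated mouse with the highest count, the log2 fold change of Sigirr was -0.26.

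The IRAK genes moved in different directions. Irak3 (ENSMUSG00000020227, chromosome 10, 119578704 to 119639186), the gene of the inhibitory IRAK-M, had counts of 140, 198, 302, 324 and 143 in the treated mice and of 12, 15, 6, 10 and 11 in the untreated mice. Mice ILB_9579 and ILB_9582 had the most reads, and every treated mouse was above every untreated one. Mean CPM was 21.9 ± 8.75 against 0.940 ± 0.277 (SD, n = 5 each), 23.3-fold higher, and the log2 fold change was 4.52 (SE 0.31, edgeR adjusted p = 3.13e-08), with 4.44 to 4.80 over the 6 tables. Tmbim4, on the opposite strand, shares 192 exon bases with Irak3 and had a log2 fold change of 0.0056 (edgeR adjusted p = 1.0).

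Irak4 (ENSMUSG00000059883, chromosome 15, 94374074 to 94412246), the kinase that MyD88 recruits first, had counts of 177, 187, 174, 170 and 151 in the treated and of 118, 96, 146, 75 and 72 in the untreated mice. The groups did not overlap, and UNT_9576 came closest to the treated ones. Mean CPM was 16.9 ± 1.16 against 8.77 ± 2.47 (SD, n = 5 each), 1.93-fold higher, with a log2 fold change of 0.94 (SE 0.16, edgeR adjusted p = 0.000254) and 0.84 to 0.97 over the 6 tables. Twf1 on the opposite strand shares 395 exon bases with Irak4 and was also higher, with a log2 fold change of 0.48 (edgeR adjusted p = 0.00109). Irak4 reads and Twf1 reads from those bases cannot be told apart if strand was not used in counting.

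Irak2 (ENSMUSG00000060477, chromosome 6, 113588461 to 113645003), a kinase-like adaptor that carries the signal on to TRAF6, was lower. It had counts of 184, 176, 112, 122 and 128 in the treated mice and of 258, 286, 220, 221 and 283 in the untreated mice. The groups did not overlap. Mean CPM was 14.2 ± 3.004 against 22.1 ± 3.14 (SD, n = 5 each), and the log2 fold change was -0.64 (SE 0.15, edgeR adjusted p = 0.00249), with -0.94 to -0.64 over the 6 tables. Irak2 shares 142 aligned bases at 96.5% identity with Med16, so some of its reads may be split between the genes, depending on the aligner.

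Set against Irak4 per kilobase of exon, Irak3 went from the smaller to the larger transcript. The ratio of Irak3 to Irak4 had a median of 1.45 (range 1.08 to 2.61) in the treated mice and 0.183 (range 0.0563 to 0.214) in the untreated mice. All 5 treated mice were above 1 and all 5 untreated mice below it. This crossing depends on the exon lengths used, as in reads Irak3 stayed below Irak4 in ILB_9577 and ILB_9583. The Irak4 reads may also include reads of Twf1 if strand was not used in counting.

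**Figure D3:**
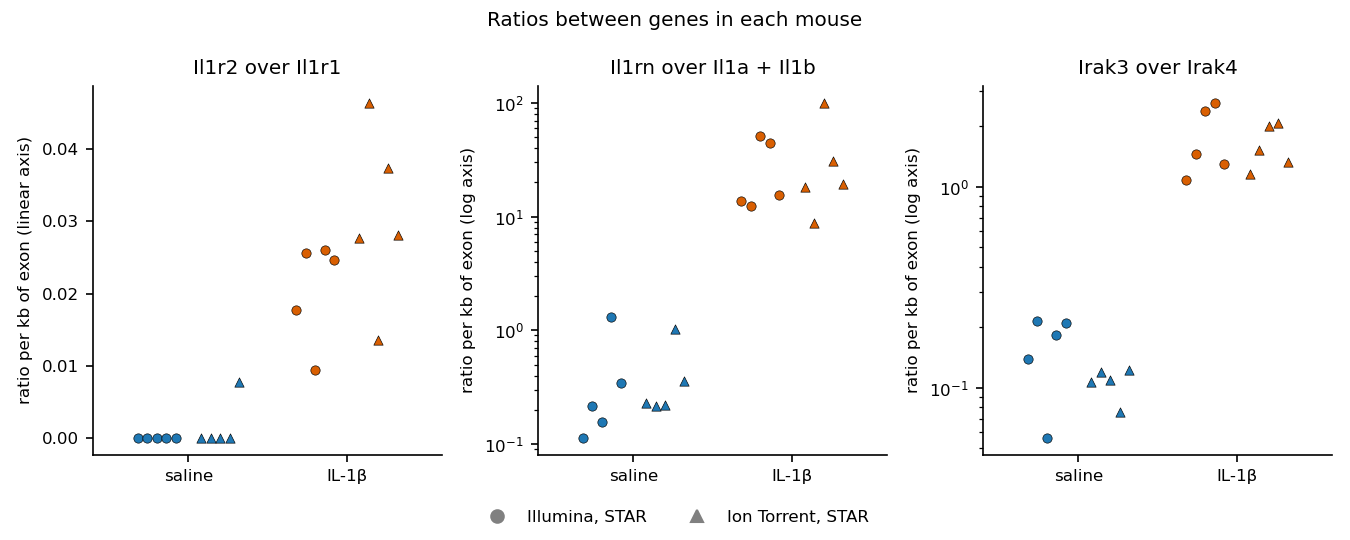
Ratios of CPM per kb of exon in each mouse for Il1r2 over Il1r1 (linear axis), Il1rn over the sum of Il1a and Il1b (log axis) and Irak3 over Irak4 (log axis), untreated in blue and IL-1β in orange, with circles for Illumina and triangles for Ion Torrent (both STAR). In the Illumina libraries the median of Irak3 over Irak4 is 0.183 in untreated and 1.45 in treated mice.

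The order of the levels changed with treatment. In CPM per kilobase of exon, untreated livers held Il1r1 (15.1) and Il1rap (14.7), whose ranges overlapped, then Sigirr (6.32), Irak2 (3.995), Irak4 (1.74), Il1a (1.43), Il1rn (0.682), Il1b (0.641) and Irak3 (0.256), with Il1r2 at 0. From Irak4 to Irak3, each gene overlapped the next in its range over mice. In treated livers Il1r1 (167) was followed by Il1rn (41.6), Il1rap (9.15), Irak3 (5.95), Sigirr (4.83), Il1r2 (3.40), Irak4 (3.36), Irak2 (2.56), Il1b (0.991) and Il1a (0.863). The ranges of Il1r1 and Il1rn were each apart from the next gene, Il1rap, Irak3 and Sigirr overlapped in turn, as did Il1r2, Irak4 and Irak2, and the 2 ligands overlapped at the bottom. Il1r1 and Il1rap thus began at about the same level per kilobase and lay 167 against 9.15 CPM per kb after treatment. The equal start depends on the lengths used, which join the exons of all transcripts (5056 bases for Il1r1 and 11360 for Il1rap). Without scaling by length, untreated mice had 76.5 CPM of Il1r1 and 167 CPM of Il1rap, and treated mice had 843 and 104 CPM.

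The 6 tables come from the same mice and check the measurement, not the mice. The 3 Ion Torrent tables each called 5 of the 10 genes higher and 3 lower. Of all genes, 42.1% were called with STAR (20.3% higher, 21.8% lower), 46.4% with GSNAP (22.5% higher, 23.9% lower) and 46.7% with STAR + Bowtie2 (22.8% higher, 24.0% lower). Illumina GSNAP called 6 higher and 3 lower, where 47.5% of all genes were called (23.7% higher, 23.9% lower). Illumina STAR + Bowtie2 called 6 higher and 2 lower, where 47.4% of all genes were called (22.9% higher, 24.4% lower). The groups did not overlap for 7 of the 10 genes in every table. This was against 35.2% of all genes in Illumina GSNAP and in Illumina STAR + Bowtie2, 31.1% in Ion Torrent STAR and 33.9% in the other Ion Torrent tables.

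**Figure D4:**
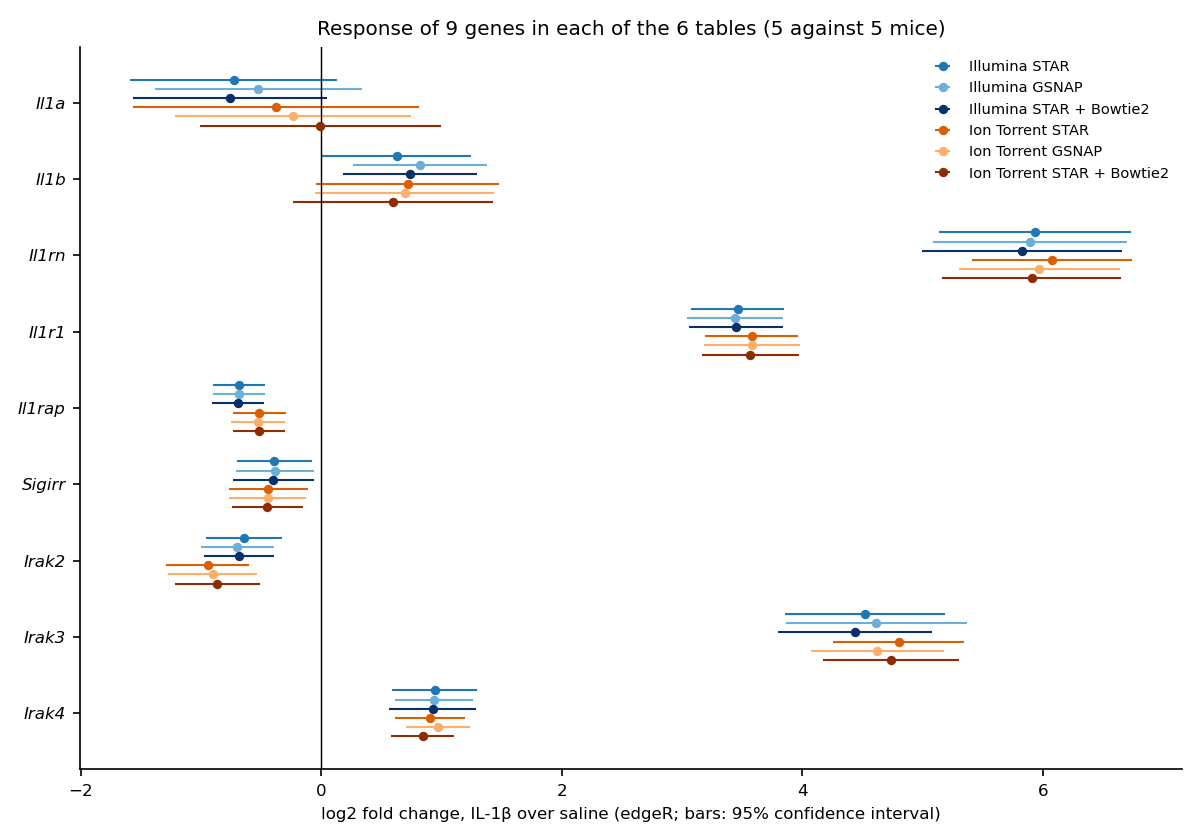
edgeR log2 fold change (IL-1β over untreated, x axis) with its 95% confidence interval for 9 of the genes in each of the 6 tables, blue for Illumina and orange to brown for Ion Torrent. Il1r2 is left out because its fitted value depends on the 0 counts of the untreated mice. Il1rn (5.83 to 6.08), Irak3 (4.44 to 4.80) and Il1r1 (3.44 to 3.58) lie far from 0 in every table.

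Whether the platforms gave different responses was tested with the platform-by-treatment term over the 20 libraries aligned with STAR, with the mouse as a block (Ion Torrent response minus Illumina response, log2). edgeR called 0 of the 10 genes, with 0.00642% of all genes called, and 0 of the 10 had an unadjusted p below 0.05. With GSNAP and with STAR + Bowtie2 it also called 0 of the 10, against 0.0642% and 0.077% of all genes. With limma-voom and the block, 0 were called as well and 1, Il1r1, had an unadjusted p below 0.05. The term of Irak2 was -0.28 (95% confidence interval -0.57 to 0.0020), that of Il1rap 0.18 (-0.010 to 0.36) and that of Il1r1 0.13 (-0.023 to 0.29). Those of Il1rn (0.15, -0.22 to 0.52), Irak3 (0.32, -0.25 to 0.90), Irak4 (-0.035, -0.33 to 0.26) and Sigirr (-0.052, -0.32 to 0.22) had intervals on both sides of 0. For Il1a (0.29, -0.56 to 1.14), Il1b (0.085, -0.73 to 0.90) and Il1r2 (-1.02, -2.94 to 0.90) the intervals were the widest of the 10. The term of Il1r2 rests on 0 to 2 reads in the untreated groups and had no stable sign. It was 0.42 (-2.69 to 3.53) with GSNAP, 2.28 (-0.094 to 4.65) with STAR + Bowtie2 and 0.037 with limma-voom. That of Il1b was -0.15 with GSNAP and -0.19 with STAR + Bowtie2.

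The genes lie in groups on the chromosomes. Il1r2 starts 140 kb before Il1r1, and the family receptors Il1rl2, Il1rl1, Il18r1 and Il18rap start 99.5, 204, 240 and 290 kb after it on the same strand. Il18r1 and Il18rap, the subunits of the IL-18 receptor, were called higher at low counts, with log2 fold changes of 1.92 (SE 0.58, edgeR adjusted p = 0.0134) and 1.83 (SE 0.40, edgeR adjusted p = 0.00164). Il18r1 had 3 to 18 reads in treated mice (median 5) and 1 to 5 in untreated mice (median 2). Its counts of 5 or more lay mostly in the treated mice, so its call may follow in part from how it entered the test. Il1rl2 and Il1rl1 had at most 2 reads in any library of this table and were not tested. On chromosome 2, Il1f9 starts 150 kb before Il1rn. It had 5 to 19 reads in the treated mice and 0 in every untreated mouse, a level at least 18.1-fold higher with 3 reads over the untreated group. Il1f9 passed the filter through the treated mice, as Il1r2 did, so its call follows in part from how it entered the test. The other 5 tables held 1 to 5 untreated reads of Il1f9, with ratios from 18.9 (95% interval 7.77 to 59.6) in Ion Torrent GSNAP to 64.2 (11.1 to 2580) in Illumina STAR + Bowtie2. Il1f8, Il1f5 and Il1f10 had 0 reads in all 10 libraries and Il1f6 had 1.

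**Figure D5:**
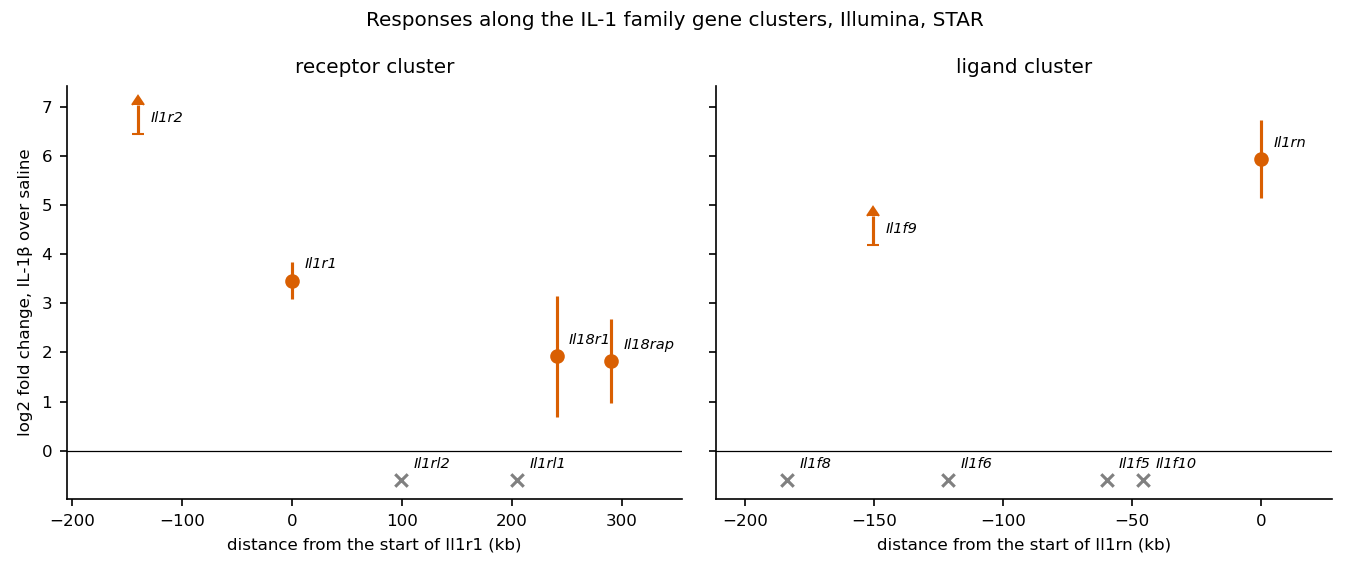
log2 fold change (Illumina, STAR) against distance in kb from the start of Il1r1 (left, receptor cluster) and of Il1rn (right, ligand cluster), with 95% confidence intervals, arrows for lower bounds of genes with 0 reads in untreated mice and crosses for genes that were not tested. Il1r1, Il18r1 and Il18rap on the left and Il1rn on the right lie above 0, and the counts of 5 or more for Il18r1 lay mostly in treated mice. Il1r2 and Il1f9, which entered the test through the treated mice, are drawn at their bounds.

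Among the other ligands and binding proteins of the family, 4 of 8 were tested, of which 3 were called higher and 1 lower (median log2 fold change 1.65). The median was the same with Il1f9 at its bound, where Il1f9 stayed the largest of the 4, so it could not change. The 3 include Il1f9, which passed the filter through the treated mice. Of all tested genes, 22.7% were called higher and 22.9% lower. Il33, an alarmin, rose (86 to 176 reads in treated against 15 to 24 in untreated mice, log2 fold change 2.96, SE 0.21, edgeR adjusted p = 4.68e-08). Il18bp, which neutralizes IL-18, rose by 0.34 (SE 0.12, edgeR adjusted p = 0.0281), and Il18 itself fell by 0.86 (SE 0.20, edgeR adjusted p = 0.00267). In the 3 Ion Torrent tables Il18 was not called, and over the 6 tables its log2 fold change was -0.86 to -0.28.

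Of the 8 genes of the inflammasome and cytokine maturation, 7 were tested, with 2 called higher, 1 lower and a median of -0.087. These 3 of 7 are no larger a share than the 45.7% of all genes called. Gsdmd, the pore through which IL-1β leaves cells, was higher by 1.37 (SE 0.095, edgeR adjusted p = 3.31e-08), and Casp4 by 1.13 (SE 0.26, edgeR adjusted p = 0.00207). Aim2, a DNA sensor, had 3 to 11 reads against 11 to 14 and a log2 fold change of -0.90 (SE 0.34, edgeR adjusted p = 0.0401), which ran from -0.92 to 0.033 over the 6 tables and was called in Illumina STAR and GSNAP only. Casp1, which cleaves pro-IL-1β, had a log2 fold change of -0.52 (SE 0.22, edgeR adjusted p = 0.0745) and did not pass, although it was called lower in the other Illumina tables.

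Directly below the receptor, 16 of 16 genes were tested, with 4 called higher, 2 lower and a median of 0.18. These 6 of 16 are a smaller share than the 45.7% of all genes called. Myd88, the adaptor between receptor and IRAKs, rose by 1.77 (SE 0.13, edgeR adjusted p = 8.88e-08), from 213 to 270 reads in untreated to 579 to 900 in treated mice. Tab2, which links TRAF6 to the kinase TAK1, rose by 0.87 (SE 0.11, edgeR adjusted p = 1.71e-05), and Tollip, an IRAK-binding inhibitor, by 0.59 (SE 0.10, edgeR adjusted p = 0.000209). The Pellino genes, ubiquitin ligases that act on IRAKs, were the 2 called lower: Peli2 fell by 0.85 (SE 0.10, edgeR adjusted p = 6.79e-06) and Peli1 fell by 0.42 (SE 0.11, edgeR adjusted p = 0.00640). The call of Peli1 was lost in Ion Torrent STAR (edgeR adjusted p = 0.0503). Irak1, the remaining IRAK, had a log2 fold change of 0.14 (SE 0.093, edgeR adjusted p = 0.258) and did not pass.

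All 7 tested genes of 8 early response and acute phase targets were called higher, with a median of 2.62, against 22.7% of all genes called higher. With Ion Torrent, 6 of the 7 were called in each table, and Nfkbia, the gene of an NF-κB inhibitor, was not (log2 fold change 0.23 to 0.25, against 0.42 in Illumina STAR). The serum amyloid A genes led, Saa2 with 8.58 (SE 0.29, edgeR adjusted p = 2.96e-11) and Saa1 with 6.99 (SE 0.32, edgeR adjusted p = 7.81e-10), and their near-identical sequences leave the split between them uncertain. Zc3h12a, an RNase that degrades cytokine mRNAs, was higher by 2.76 (SE 0.19, edgeR adjusted p = 4.15e-08). The lists were chosen with results of these data known, so their direction is a description.

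The genes whose pattern over the 10 libraries was most like that of the strongest responders were found by Pearson correlation of log2(CPM + 1) among the 11929 genes whose counts averaged 10 or more. For Il1rn they were Ccl9 (0.996, and 0.997 in Ion Torrent STAR) and Mbd1 (0.995 and 0.987). For Il1r1 they were Steap4 (0.996 and 0.997) and Cpne8 (0.996 and 0.995), and for Irak3 they were Ythdf1 (0.996 and 0.987) and Mapkapk2 (0.994 and 0.986). All of these libraries share the gap between the treatments, so the values are a description. At or above 0.95 were 406 genes for Il1rn, 487 for Il1r1 and 485 for Irak3.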

How the data were processed

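Liver RNA of 10 mice was sequenced on 2 platforms. The deposited values are counts per gene in 6 tables, of which all 60 columns were used. Per the labels and the study's methods, the authors aligned reads to mm9 with GSNAP, STAR (2.5.1b) or STAR then Bowtie2 (2.2.9), and PORT removed rRNA and mitochondrial reads, assigned reads to Ensembl genes and re-sampled each table's libraries to a common depth. Whether a count is a read or a read pair is not stated; they are called reads. Totals per library were 10568530 to 12008799 (Illumina) and 12199528 to 16439683 (Ion Torrent), with TMM factors of 0.920 to 1.10. The coordinates in the tables extend each gene by 250 (Illumina) or 246 bases (Ion Torrent) at each end of the NCBIM37 models used here. Those models are of an earlier Ensembl release than the authors'.

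A gene was tested when 5 or more libraries of any table held 5 or more of its reads. The test was edgeR's quasi-likelihood F test, run within each table on counts scaled by TMM. Mice are not shared between treatments, so those tests have no block. In the platform-by-treatment fit the mouse number pairs libraries of the same RNA, and the check gave same-mouse correlations of 0.194 or more. Alternatives were limma-voom, DESeq2, the study's rank-sum test, other scaling and filters, the other tables, no block, and leaving out each mouse. On simulated data (15578 genes, 200 changed by 1.5 log2) edgeR recovered 198 for the treatment and 184 for the platform term, DESeq2 199, limma-voom 191 and, with the block, 153, and the rank-sum test 0. With 5 against 5 mice and so few genes changed, a rank-sum p cannot pass the adjustment, so that 0 was fixed by the setting. In the deposited data the same test called 5932 genes. The changed genes were drawn above a minimum mean count, so the recovery does not speak for genes with lower counts, Il1b among them. For the platform term, the simulated libraries of a mouse were drawn independently and shared no mouse effect. The 184 and 153 therefore do not measure recovery with libraries of the same RNA.

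The members and lists were chosen with earlier results of these data known. Named genes are the members and, from each list, up to 3 called genes with the highest and 2 with the lowest log2 fold change, and 2 genes of most similar pattern for Il1rn, Il1r1 and Irak3. Casp1 and Irak1, and the cluster and overlapping genes, were added after their values were seen. Exon overlaps and transcript similarity (at least 100 bases aligned by BLAST+ 2.17.0) used the Ensembl models. Tests ran in edgeR 4.0.16, DESeq2 1.42.0 and limma 3.58.1 under R 4.3.3. Summaries and plots used matplotlib 3.10.9, pandas 2.3.3, scipy 1.17.1 and numpy 2.4.6 under Python 3.11.15.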

Additional observations from a re-analysis of the deposited data

Results flagged for a closer look

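Il1b in the treated mice (Illumina, STAR) had 1 mouse far from the others. Mouse ILB_9578 was at 2.66 CPM and the other 4 at 1.59 to 1.78 CPM, a gap of 0.817 of the whole range, above the critical value of 0.71 for 5 samples. Of 19 groups tested in this way, 1 passed, and chance alone passes about 1 in 20. The value rests on 27 reads, and without ILB_9578 the log2 fold change of Il1b was 0.47 (edgeR adjusted p = 0.231).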

How the results depend on the processing

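Il1a aside, the genes kept their direction in the 12 settings other than leaving out a mouse and in the 10 fits without 1 mouse. Il1rn, Il1r1, Il1r2, Irak3, Irak4, Il1rap and Irak2 were called in all of them, and Il1a in none. In Ion Torrent STAR + Bowtie2 the fitted value of Il1a was -0.0052, with means of 1.49 CPM in both groups, so it had no direction there. Calls of Sigirr and Il1b changed as given in the report, and the cause was not tested. Without 1 mouse, edgeR called 6577 to 7019 genes in all (7116 with all mice), with 5 to 6 of the 10 genes higher and 2 to 3 lower, the count of 6 being reached without UNT_9584. DESeq2 called 7137 genes, limma-voom 7192, the rank-sum test 5932, edgeR with DESeq2 size factors 7112, without a filter 7164 of 19704 and with the filter set within the STAR data 7092 of 13117. Without TMM scaling, 2746 genes were called higher and 4335 lower in place of 3541 and 3575, with the median of all genes at -0.099 on the log2 scale, and with the rank-sum test 2142 and 3790 were. In both, 5 of the 10 genes were higher and 3 lower. The pairing of libraries by mouse did not change a call: 0 of the 10 genes were called in the platform-by-treatment fit with or without the replicate block (unadjusted p below 0.05 for 1090 of all genes with it and 244 without), with the other aligners (10 and 12 of all genes called) and without any 1 mouse, where up to 2 of the 10 had an unadjusted p below 0.05. The median of Irak3 over Irak4 in untreated mice was 0.102 to 0.109 in the Ion Torrent tables, against 0.183. Il1a, Il1b and Il1r2 had at most 61 reads in any library of the Illumina STAR data, and how depth bears on their errors was not tested.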

Other observations

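ILB_9579 and ILB_9582 differed from the other 3 treated mice in several of these genes at once, a pattern chosen after the values were seen and not tested. In the Illumina STAR table they had 1975 and 1710 reads of Il1rn against 918 to 1146 in the other 3, and 302 and 324 reads of Irak3 against 140 to 198. They had 7 and 5 reads of Il1a against 19 to 29, and 112 and 122 reads of Irak2 against 128 to 184. In the Ion Torrent STAR table, from the same RNA, the order was the same for Il1rn (1670 and 1445 against 844 to 1016), Irak3 (326 and 371 against 178 to 281) and Irak2 (123 and 119 against 160 to 191), while for Il1a ILB_9577 with 5 reads lay between them. Il1r2 did not follow this split, with 25 reads in ILB_9579 and 58 in ILB_9582.

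Among the untreated mice, UNT_9580 had the most Il1rn reads on both platforms with STAR, at 56 against 9 to 25 in Illumina and 41 against 9 to 16 in Ion Torrent. Mouse UNT_9574 had the most Il1r1 reads on both, at 1329 against 670 to 968 and 1102 against 492 to 742.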
